A study of Arabidopsis thaliana with 12 samples.

Results

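Chloroplast enzymes that are switched on by thioredoxin, and the reductases that supply thioredoxin with electrons, were followed at the transcript level in Arabidopsis thaliana, wild type, ecotype C24. The set held 6 genes: the Calvin-Benson enzymes PRK (AT1G32060, phosphoribulokinase) and SBPASE (AT3G55800, sedoheptulose bisphosphatase), the NADP-dependent malate dehydrogenase NADP-MDH (AT5G58330), the reductases FTRB (AT2G04700) and NTRC (AT2G41680), and the peroxiredoxin PRXIIE (AT3G52960). They were chosen by locus, each through the array feature that the platform annotation paired with that gene and no other, out of 692 such features and 3439 features in all. One group of plants received light absorbed mainly by photosystem II together with DCMU, a herbicide that blocks electron transfer from photosystem II to plastoquinone (PSII light with DCMU). It was set against plants under light absorbed mainly by photosystem I, with no DCMU (PSI light). Light and DCMU changed together, so neither can be credited with a difference. The labels name no mutation, and the tissue, plant age, light dose and DCMU dose are not given in the sources used here. Each group had 6 samples of total RNA, numbered 1 to 6 in the titles.

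In the chloroplast stroma, ferredoxin reduced by photosystem I passes electrons to ferredoxin-thioredoxin reductase, which reduces thioredoxins. Reduced thioredoxins break disulfide bonds in target enzymes, among them phosphoribulokinase, sedoheptulose bisphosphatase and NADP-dependent malate dehydrogenase, and so couple their activity to light. NTRC carries a reductase and a thioredoxin domain in a single protein and draws on NADPH, so it can also work in the dark, and peroxiredoxins use such thiol electrons to remove peroxides. This control acts on proteins; the array measured their transcripts.

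Samples 1 and 2, 3 and 4, and 5 and 6 of a group were each more like their partner than like the group's other samples. They were treated as technical pairs. Each pair was averaged and is called replicate 1, 2 or 3, so n = 3 per group. No label says whether replicates came from separate plants, so p-values reflect only how these samples spread, and that spread may be technical. Values are the authors' linear array intensities, of unstated scale, so the level of one gene cannot be set against that of another. The median intensity over all features was 0.632 to 0.688 in the samples under PSII light with DCMU and 0.542 to 0.584 in those under PSI light. All 6 genes lay above the floor of 0.0431 in all 12 samples, and none was listed at 0, so the floor did not enter their values.

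As deposited, the transcripts of PRK, SBPASE, NADP-MDH and PRXIIE were higher under PSII light with DCMU than under PSI light. That of FTRB was lower, and that of NTRC did not pass the test. Against an adjusted p of 0.05 (limma, Benjamini-Hochberg over all features), 4 of the 6 rose and 1 fell. Calls were common on this array: 48.5% of all features passed, 26.4% higher and 22% lower, so a called gene here is not unusual for the comparison. Same-numbered replicates of the groups were alike in their deviations from group means (r = 0.29 to 0.36, against -0.33 to 0 for other numbers). The fit above did not pair them. With them paired (the replicate number as a block), 2 of the 6 rose and 1 fell. NADP-MDH (limma, adjusted p = 0.0521) and PRXIIE (limma, adjusted p = 0.0806) then did not pass, while 1656 of 3439 features did. After quantile normalization PRK (limma, adjusted p = 0.0727) and SBPASE (limma, adjusted p = 0.089) did not pass. With the median of each place in the array's numbering taken out, PRXIIE stood at -0.03 (limma, adjusted p = 0.898). FTRB did not pass there either (limma, adjusted p = 0.172). The median log2 change was 0.72 over the 6 genes and 0.04 over all features. For 5 of the 6 genes the groups' replicates were apart, as they were for 60.7% of all features. In bulk tissue, fewer cells of a type and less RNA per cell cannot be told apart.

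**Figure D1:**
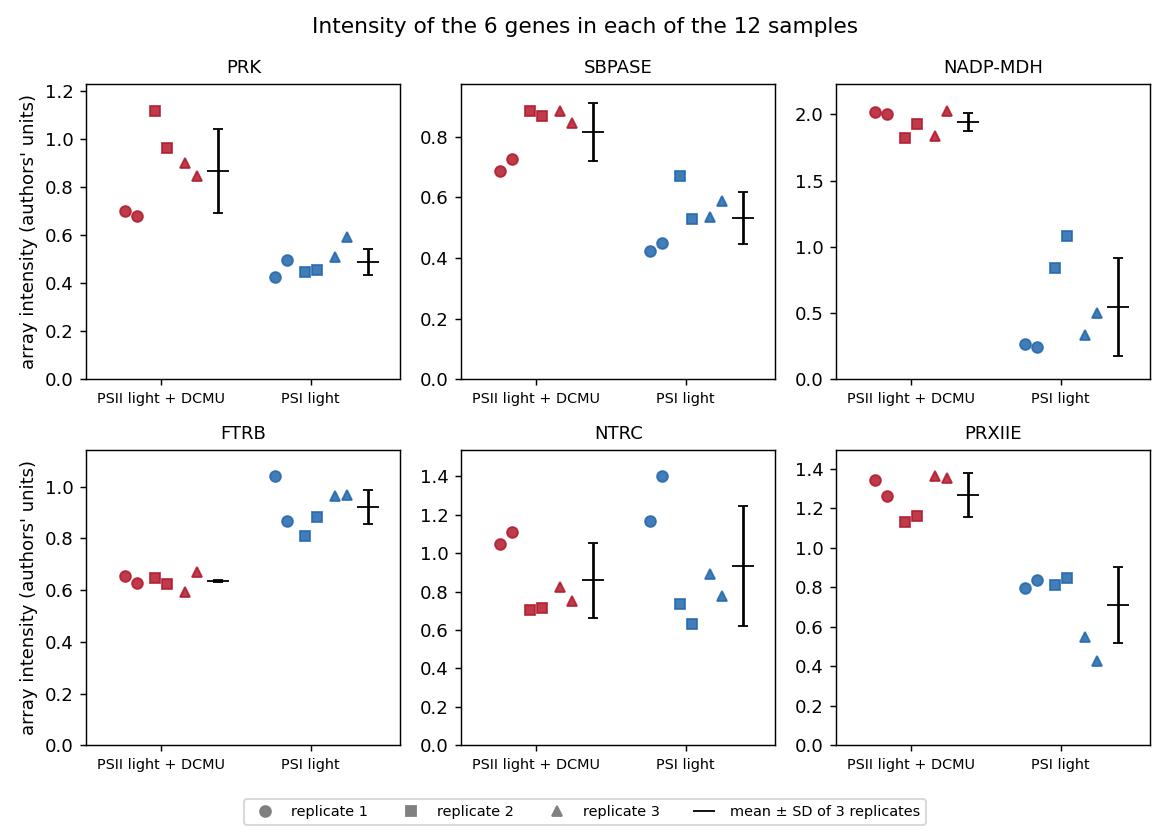
Array intensity (vertical axes, the authors' units, starting at 0) of the 6 genes in the 12 samples, with PSII light with DCMU at left and PSI light at right of each panel; the symbol marks the replicate, with its 2 technical partners side by side, and the black bar the mean ± SD of 3 replicates. The groups are apart for all genes except NTRC, and NADP-MDH under PSI light spreads from 0.243 to 1.08 while under PSII light with DCMU it stays between 1.82 and 2.03.

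PRK makes ribulose bisphosphate, the acceptor of carbon dioxide in the Calvin-Benson cycle. Its intensity in the 6 samples under PSII light with DCMU was 0.682 at the lowest, 0.876 at the median and 1.12 at the highest, against 0.425, 0.477 and 0.592 under PSI light. Every sample under PSII light with DCMU was thus above every sample under PSI light. As replicates, PRK stood at 0.691, 1.04 and 0.876 under PSII light with DCMU, against 0.462, 0.451 and 0.551 under PSI light. The upper group was the more spread, with replicate 2 the highest and replicate 1 the lowest. The means were 0.869 ± 0.175 under PSII light with DCMU and 0.488 ± 0.055 under PSI light (SD, n = 3), a log2 change of 0.82 ± 0.177 (SE; adjusted p = 0.0177). That is 1.77-fold, with a 95% interval of 1.29 to 2.43. By replicate number the log2 difference was 0.59, 1.2 and 0.67, positive in 3 of 3. The call did not hold without PSII_DCMU replicate 3 (0.80, adjusted p = 0.0604) or PSI replicate 1 (0.78, adjusted p = 0.0545), within a range of adjusted p of 0.00147 to 0.0727 over 18 alternatives.

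SBPASE regenerates that acceptor further upstream in the cycle. Its intensity was 0.687, 0.857 and 0.887 (lowest, median, highest) in the samples under PSII light with DCMU, against 0.425, 0.531 and 0.671 under PSI light. The samples of the groups did not overlap, but the gap was narrow, from 0.687 in sample 1 of the upper group to 0.671 in sample 3 of the lower. The replicates were 0.707, 0.878 and 0.865 under PSII light with DCMU, against 0.438, 0.6 and 0.56 under PSI light. In both groups replicate 1 was the lowest. The means were 0.817 ± 0.0949 under PSII light with DCMU and 0.533 ± 0.0845 under PSI light (SD, n = 3), a log2 change of 0.63 ± 0.156 (adjusted p = 0.0268) or 1.54-fold, with a 95% interval of 1.17 to 2.04. Taken by replicate number, the difference was even, 0.69, 0.56 and 0.63 on the log2 scale, and the standard error with the number as a block was 0.048 (adjusted p = 0.0114). Without that block the call ended when PSII_DCMU replicate 2 (0.57, adjusted p = 0.0852), PSII_DCMU replicate 3 (0.58, adjusted p = 0.0864) or PSI replicate 3 (0.67, adjusted p = 0.0527) was left out, within a range of 0.00063 to 0.121 over 18 alternatives.

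The rises of PRK and SBPASE passed the test as deposited but not under 2 other scalings. Quantile normalization left PRK at 0.64 ± 0.234 (adjusted p = 0.0727) and SBPASE at 0.45 ± 0.176 (adjusted p = 0.089), neither past the threshold. Division of each array by its median left PRK at 0.60 ± 0.216 (adjusted p = 0.07) and SBPASE at 0.41 ± 0.182 (adjusted p = 0.121), also not past it. Division by the median moved the median change of all features to -0.09, against 0.04 as deposited. Relative to the median change of all features, PRK stood at 0.78 as deposited and 0.69 after either scaling, and SBPASE at 0.59 as deposited and 0.50 after either. Division by the median shifts all features above the floor alike, so that step moved neither gene against such features. The share of higher calls among all calls was 54.5% as deposited, 41.5% after quantile normalization and 39.6% after division by the median.

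NADP-MDH reduces oxaloacetate to malate in the stroma, which lets surplus reducing power leave the chloroplast as malate. It had the largest change of the 6 genes, and a larger size of change than 96.7% of all features. Its intensity was 1.82, 1.97 and 2.03 (lowest, median, highest) in the samples under PSII light with DCMU, against 0.243, 0.418 and 1.08 under PSI light. The samples under PSII light with DCMU lay close together, while those under PSI light were widely spread. The replicates were 2.01, 1.87 and 1.94 under PSII light with DCMU, against 0.255, 0.96 and 0.418 under PSI light, with PSI replicate 2 well above the other two. Both technical partners of that replicate were high, at 0.841 and 1.08. The coefficient of variation of the replicates was 3.56% under PSII light with DCMU and 67.9% under PSI light. The means were 1.94 ± 0.0692 under PSII light with DCMU and 0.544 ± 0.37 under PSI light (SD, n = 3).

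The log2 change of NADP-MDH was 2.07 ± 0.505 (adjusted p = 0.0253), or 4.19-fold with a wide 95% interval of 1.7 to 10.4. By replicate number it was 2.98, 0.97 and 2.24, positive in 3 of 3 but unequal. PSI replicate 2 set much of this spread: without it the change was 2.59 ± 0.229 (adjusted p = 0.00375), a standard error smaller by more than 1.5 times. The call ended without PSII_DCMU replicate 1 (2.04, adjusted p = 0.0793), 2 (2.09, adjusted p = 0.0731) or 3 (2.07, adjusted p = 0.0757) or PSI replicate 3 (1.98, adjusted p = 0.0696). With the replicate number as a block it ended too (2.07, adjusted p = 0.0521, within a range of 0.00119 to 0.0793 over 18 alternatives). The change was positive in every one of those alternatives, at 1.64 to 2.59, and past the threshold after quantile normalization (2.04, adjusted p = 0.0136) and after division by the median (1.85, adjusted p = 0.0313).

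Of the reductases, FTRB passed the test and NTRC did not. FTRB is the catalytic subunit of ferredoxin-thioredoxin reductase, which brings electrons from ferredoxin to thioredoxin. Its intensity was 0.592, 0.638 and 0.671 (lowest, median, highest) in the samples under PSII light with DCMU, against 0.81, 0.923 and 1.04 under PSI light. No sample under PSII light with DCMU reached the lowest one under PSI light. The replicates were 0.641, 0.636 and 0.632 under PSII light with DCMU, against 0.953, 0.846 and 0.965 under PSI light. The first 3 values are nearly equal: their coefficient of variation was 0.772%, against 7.08% under PSI light, and single partners differed by more, from 0.592 to 0.671. FTRB fell by 0.53 on the log2 scale (SE 0.0632, adjusted p = 0.00321), to 0.693 times its level under PSI light (95% interval 0.618 to 0.776). That SE depended on the processing. It was 0.127 with dim features left out and 0.11 with only samples 1, 3 and 5, but 0.0631 with only samples 2, 4 and 6. FTRB passed in each of these fits. The difference by replicate number was -0.57, -0.41 and -0.61, negative in 3 of 3, and the call held without each replicate in turn (adjusted p = 0.00242 to 0.0188). It also held after quantile normalization (-0.64, adjusted p = 0.00208) and after division by the median (-0.75, adjusted p = 0.00245). It was lost with the place of features in the array's numbering taken out (-0.23, adjusted p = 0.172), and with place and brightness taken out (-0.23, adjusted p = 0.207), within a range of 0.00167 to 0.207 over 18 alternatives.

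NTRC gave 0.705, 0.788 and 1.11 (lowest, median, highest) in the samples under PSII light with DCMU, against 0.629, 0.835 and 1.4 under PSI light. The groups overlapped over most of their range. The replicates were 1.08, 0.711 and 0.788 under PSII light with DCMU, against 1.28, 0.683 and 0.835 under PSI light. Replicate 1 was the highest in both groups and replicate 2 the lowest in both, so the replicates had the same order in both groups. The log2 change was -0.09 ± 0.294 (adjusted p = 0.852), with a 95% interval of -0.85 to 0.67 that includes both a fall the size of that of FTRB and a rise the size of that of SBPASE. With the replicate number as a block the standard error was 0.0811 and the change still did not pass (adjusted p = 0.437). The difference by replicate number was -0.24, 0.06 and -0.08.

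PRXIIE is a peroxiredoxin of the chloroplast that reduces peroxides. Its intensity was 1.13, 1.3 and 1.36 (lowest, median, highest) in the samples under PSII light with DCMU, against 0.428, 0.802 and 0.844 under PSI light. The samples of the groups were well apart. The replicates were 1.3, 1.14 and 1.35 under PSII light with DCMU, against 0.814, 0.827 and 0.487 under PSI light, where replicate 3 was low in both partners (0.546 and 0.428). The means were 1.27 ± 0.11 under PSII light with DCMU and 0.71 ± 0.193 under PSI light (SD, n = 3), a log2 change of 0.88 ± 0.241 (adjusted p = 0.0355), or 1.83-fold with a 95% interval of 1.19 to 2.83. By replicate number it was 0.67, 0.47 and 1.49, positive in 3 of 3 and largest where the PSI replicate was low. Without PSI replicate 3 the change was 0.62 ± 0.0903 and passed (adjusted p = 0.0117). It did not pass without PSII_DCMU replicate 1 (0.86, adjusted p = 0.103), 2 (0.95, adjusted p = 0.0763) or 3 (0.82, adjusted p = 0.105) or PSI replicate 1 (0.997, adjusted p = 0.0513). With the replicate number as a block it did not pass either (0.88, adjusted p = 0.0806, within a range of 0.00291 to 0.977 over 18 alternatives). With the median of each place in the array's numbering taken out, PRXIIE stood at -0.03 (limma, adjusted p = 0.898).

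The size of a change on this array also went with the place of a feature in the numbering, which was divided into 16 equal runs. Cutting each run into 3 equal stretches gave a median log2 change of -0.31 for features in the first stretch, 0.42 in the middle one and 0.16 in the last. A feature's place is its position within a run. Each gene was therefore set beside the other features at its own place that lay above the floor in all samples. SBPASE sat at place 77, in the first stretch, where 40.5% of features were called lower and 8.03% higher, and its rise was larger than the change of 94% of the features in that stretch. The 12 others at its place had a median change of -0.73, and 10 of them lay below SBPASE. PRK, at place 271, exceeded all 15 others at its place, whose median was -0.06 and highest value 0.43. In its stretch, the last, 30.7% of features were called higher, and its rise was larger than the change of 76.3% of them all. NADP-MDH, at place 105, exceeded all 11 others, whose median was 0.07 and highest value 1.63. In its stretch, the middle one, 39.6% of features were called higher, and its rise was larger than the change of 93.4% of them all.

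Of the other genes, PRXIIE changed about as much as its place, while FTRB fell further than the median of its place. The 13 others at place 238, that of PRXIIE, had a median change of 0.97, above its own 0.88, and 5 of them lay below it. In its stretch, the last, its rise was larger than the change of 77.8% of features. The 14 others at the place of FTRB (268) had a median of -0.24, and 2 lay below its -0.53. Its stretch was also the last, where the median change was 0.16 and 14.4% of features lay below FTRB. The 13 others at the place of NTRC (31) had a median of -0.28, and 9 lay below its -0.09. All 6 genes were of middle to upper brightness, in classes 6 to 8 of 10, where the median change was 0.17, -0.03 and -0.11. In these classes 26.2%, 19.2% and 16.6% of features were called higher, and 22.1%, 25.3% and 29.1% lower. In the dim classes 2 and 3, 46.8% were called higher. Whether brightness had a part in the changes of these genes was not tested.

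**Figure D2:**
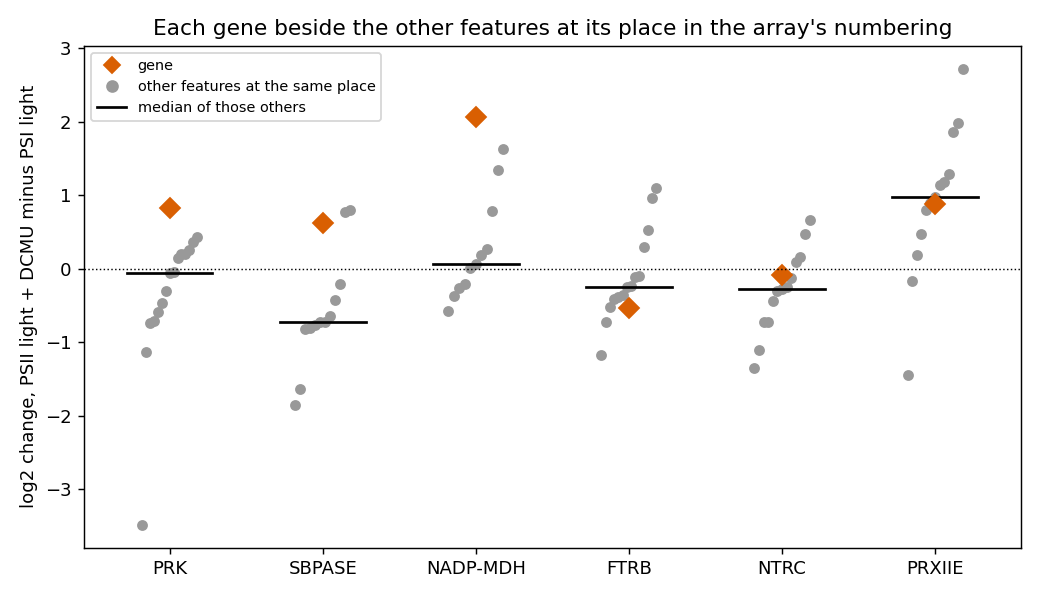
Log2 change, PSII light with DCMU minus PSI light (vertical axis), of each gene (diamond) and of the other features at the same place within runs of the feature numbering (grey points, 11 to 15 per gene, bar at their median). PRK and NADP-MDH lie above all of their neighbours in this sense and SBPASE above 10 of 12, while PRXIIE lies near the median of its place.

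With the median deviation of each place taken out of every replicate, SBPASE stood at 1.26 ± 0.144 (adjusted p = 0.00101), above its 0.63 as deposited by more than 1.5 times. PRK stood at 0.94 ± 0.22 (adjusted p = 0.0135) and NADP-MDH at 1.91 ± 0.326 (adjusted p = 0.0042). PRXIIE stood at -0.032 ± 0.174 (adjusted p = 0.898), so its rise was not seen after this step. FTRB stood at -0.23 ± 0.127 and was not past the threshold (adjusted p = 0.172), but with the mean over all features of a place taken out instead it stood at -0.40 ± 0.12 and was (adjusted p = 0.027). NTRC passed in neither (0.11 and 0.20). The correction is itself imperfect: it called 88 with the median, and 98 with the mean, of 141 features that were never above the floor in any sample.

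**Figure D3:**
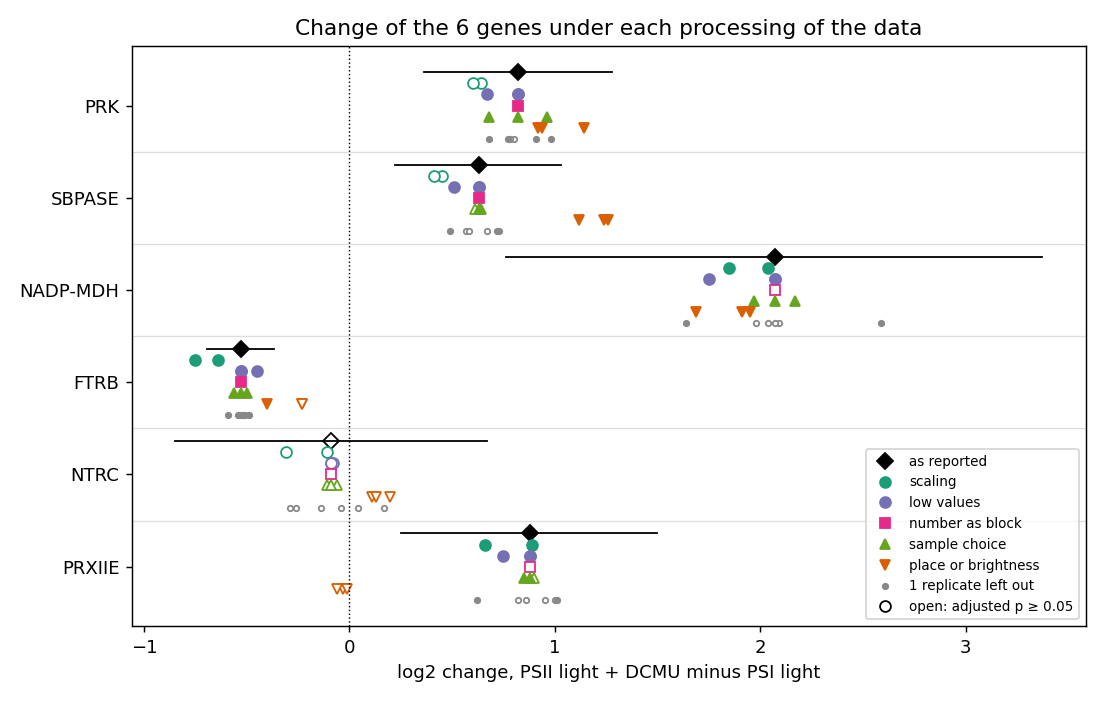
Log2 change, PSII light with DCMU minus PSI light (horizontal axis), of the 6 genes as reported (diamond, with its 95% interval) and under the other processings named in the legend; filled symbols passed an adjusted p of 0.05 and open ones did not. PRK, SBPASE and NADP-MDH stay right of 0 and FTRB left of 0 throughout, while PRXIIE comes to -0.06 to -0.01 with place taken out and NTRC lies on either side of 0.

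In the ratio of 2 genes within a replicate a single factor for the whole array cancels, though quantile normalization and the place of the features can still move it. The enzymes were set against FTRB in this way. Each of the 4 was higher without overlap and FTRB lower without overlap, so as deposited these ratios had to be apart. They restate the changes of the single genes. The log2 ratio of PRK over FTRB was 0.11, 0.71 and 0.47 in the replicates under PSII light with DCMU, against -1.04, -0.91 and -0.81 under PSI light. The groups were apart, by a mean of 1.35. For SBPASE over FTRB the mean log2 ratio was 0.35 ± 0.185 under PSII light with DCMU and -0.80 ± 0.306 under PSI light (SD, n = 3), a difference of 1.16 with no overlap. NADP-MDH over FTRB differed by 2.6 and PRXIIE over FTRB by 1.41, again with no overlap between the replicates. With the median of each place taken out, PRXIIE over FTRB differed by 0.20 and the replicates overlapped, while PRK over FTRB (1.18), SBPASE over FTRB (1.49) and NADP-MDH over FTRB (2.15) still did not overlap. Quantile normalization gave 1.28, 1.09, 2.69 and 1.53 for PRK, SBPASE, NADP-MDH and PRXIIE over FTRB, also with no overlap. The single genes kept their directions there (0.64, 0.45, 2.04 and 0.89, against -0.64 for FTRB). Those ratios thus again combine opposite changes of single genes and are no separate support. As deposited, in each of these 4 ratios the exact permutation test gave the smallest p that 3 against 3 replicates allow (two-sided p = 0.1, adjusted p = 0.15 over 6 ratios), so the design cannot carry them past 0.05. That p was already fixed by the separation of the single genes.

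The ratio of the Calvin-Benson enzymes to each other was not shown to move. PRK over SBPASE was 0.08 ± 0.147 under PSII light with DCMU and -0.12 ± 0.251 under PSI light (log2, SD, n = 3), with overlapping replicates (exact permutation test, two-sided p = 0.5, adjusted p = 0.5). FTRB over NTRC was -0.41 ± 0.306 under PSII light with DCMU and 0.03 ± 0.402 under PSI light, also with overlap (exact permutation test, two-sided p = 0.3, adjusted p = 0.36). By replicate, FTRB over NTRC was -0.75, -0.16 and -0.32 under PSII light with DCMU, against -0.43, 0.31 and 0.21 under PSI light, lower in 3 of 3 replicate numbers. Taken by number the difference was -0.32, -0.47 and -0.53, with an SD of 0.108 around a mean of -0.44, and the exact sign-flip test gave the smallest p that 3 pairs allow (two-sided p = 0.25). Read by number, the fall of FTRB relative to NTRC was thus even as deposited. It was less even with the median of each place taken out (-0.32, -0.52 and -0.19, SD 0.167). After quantile normalization the SD was 0.0518, and with the mean of each place taken out it was 0.103. Neither test can settle at n = 3 whether the reductases changed unequally.

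**Figure D4:**
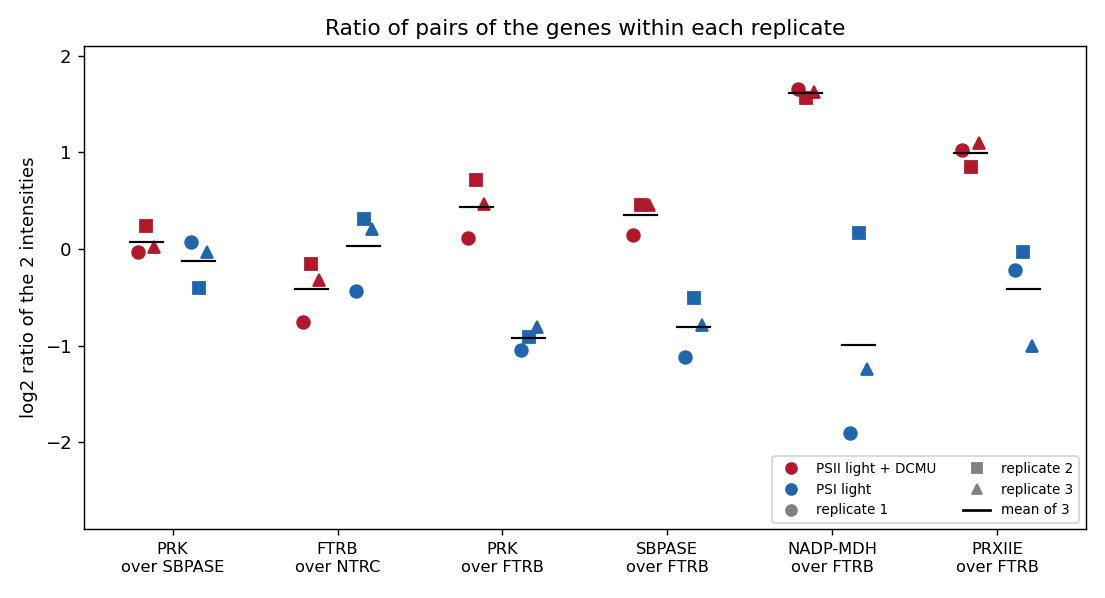
Log2 ratio of the intensities of 2 genes within each replicate (vertical axis), with PSII light with DCMU (red) left of PSI light (blue) for each ratio, symbols for the replicates and a bar at the mean of 3. The 4 ratios with an enzyme over FTRB are apart between the groups, by 1.16 to 2.6 as deposited (PRXIIE over FTRB by 0.20, with overlap, once place is taken out), and PRK over SBPASE and FTRB over NTRC overlap. As deposited, that separation follows from the groups being apart for each of the single genes in these 4 ratios.

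The 6 genes were all that the array could name among 81 genes listed for the pathway, so the pathway beyond them was hardly seen. The counts by list therefore only repeat the calls of these 6 genes as deposited, with the limits given above for each. Over all features 26.4% were called higher and 22% lower. Of 24 listed Calvin-Benson genes 2 had a feature of their own, and both rose. Of 5 genes for the malate valve and carbon export 1 was measured, and it rose. Of 21 thioredoxins, their reductases and their electron donors 2 were measured, of which 1 fell and 1 did not pass. Of 18 genes for removal of peroxides and superoxide in the plastid 1 was measured, and it rose as deposited but not with place taken out. Neither of the other lists, with 8 further thioredoxin targets and 5 peroxiredoxins from outside the plastid, had a measured member. Another 9 listed genes shared a feature with at least 1 other gene in the annotation. Those 8 features cannot be named for a single gene, and 1 was called higher, 1 lower and 6 did not pass. None of the 6 root and seed markers listed had a feature of its own, so RNA from other tissues was not tested.

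The named genes whose levels followed the set most closely were found by Pearson correlation of log2 intensity over the 6 replicate values, among 653 other named features. Since these 6 values fall into the 2 groups, a high value mainly repeats the group difference, and it is given as a description. SBPASE was most like DRT100 (r = 0.988), which changed by 0.65 ± 0.164, and CML41 (r = 0.973), a calmodulin-like gene, which changed by 1.05 ± 0.228. FTRB was most like AT2G46630 (r = 0.996) and AT4G16410 (r = 0.995), which fell by 1.05 and 0.78 on the log2 scale. These last genes lay at places 273 and 281, near that of FTRB at 268. NADP-MDH was most like AT5G49120 (r = 0.995) and AT1G22040 (r = 0.994), and PRXIIE most like AT4G27510 (r = 0.991) and AT5G05330 (r = 0.99). AT1G22040 lay at place 110, near NADP-MDH at 105, and AT5G49120 at 127. CML41 lay at 88 and DRT100 at 144, with SBPASE at 77. The 2 features most like PRXIIE (238) lay farther off, at 59 and 178.

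Likeness was common for some of the genes and rare for others. NADP-MDH had 105 named features with r above 0.9, PRXIIE 103, FTRB 91 and SBPASE 49. PRK had 14, with AT4G17650 (r = 0.92) and AT1G32520 (r = 0.916) the nearest, and NTRC had 5. The nearest to NTRC were AT3G52550 (r = 0.939), at -0.08 ± 0.208, and Z-ISO (r = 0.934), a carotenoid synthesis gene, at 0.08 ± 0.271. Neither of these passed the test between the groups, and the feature of Z-ISO lay at place 28, close to NTRC at 31.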

How the data were processed

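The authors deposited 1 linear intensity per array feature and sample, from 0 to 100; array type, background correction and scaling are not given in the sources used here. Column means lay within 3.25% and medians within 11.9% of their averages; a rule that asked for either within 10% kept the table as deposited, so it was met by the means only. Values under the 1st percentile of positive intensities (0.0431) were set to it, 4.74% of all values, and log2 was taken. Names came from GEO's platform annotation, which may be outdated: 692 had exactly 1 gene, 870 several and 1877 none; 690 of the 692 matched the TAIR10.1 gene table. A feature can also detect related genes.

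Technical partners were averaged on the log2 scale (on the linear scale, without the floor, for mean ± SD). Deviations from group means correlated at 0.38 to 0.66 between partners and at -0.51 to -0.18 between other samples of a group. Same-numbered replicates of the groups correlated at 0.29 to 0.36 and others at -0.33 to 0, so the numbers pair the replicates; this comes from the data, as no label says what a number means. The comparison used lmFit and eBayes of limma 3.58.1 (R 4.3.3; figures with Python 3.11.15 and matplotlib 3.10.9) without a block, Benjamini-Hochberg over 3439 features at 0.05. The number of arrays limits precision.

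The genes, lists and tests were chosen with earlier results of these data known. Named are the 6 genes, listed genes with a feature of their own, and, for each of the 6, the 2 named features with the highest correlation. Alternatives covered scaling, low values, dim features, technical partners, the replicate number as a block, place and brightness, and each replicate left out; the mean of a place, and every alternative for the ratios, were chosen after seeing the data. The planned runs of consecutive rows were taken over feature numbers, 1 to 4607, which have gaps. Sequences were not used here.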

Additional observations from a re-analysis of the deposited data

How the results depend on the processing

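Over 18 alternatives the direction held for PRK, SBPASE, NADP-MDH and FTRB, and the call held in 14, 12, 13 and 16 of them. PRXIIE kept its call in 9. Quantile normalization ended the calls of PRK (0.64) and SBPASE (0.45), as did division by the array median (0.60 and 0.41). Blocking on the replicate number ended the calls of NADP-MDH (2.07) and PRXIIE (0.88), and no other call of the 6 genes changed. With only samples 1, 3 and 5 SBPASE did not pass (0.61), nor PRXIIE with only samples 2, 4 and 6 (0.90). With place taken out FTRB did not pass (-0.23), and NTRC (0.11) and PRXIIE (-0.032) changed sign. With brightness taken out as well the values were -0.23, 0.129 and -0.007. With the mean of a place taken out NTRC stood at 0.20 and PRXIIE at -0.061. The cause of these differences was not tested. Under quantile normalization, division by the median, the block, place taken out, and place and brightness taken out, 3 of the listed pathway genes were called instead of 5.

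Without 1 replicate at a time the change was 0.68 to 0.98 for PRK, 0.49 to 0.73 for SBPASE, 1.64 to 2.59 for NADP-MDH, 0.62 to 1.01 for PRXIIE, -0.59 to -0.49 for FTRB and -0.29 to 0.17 for NTRC, which was positive without PSII_DCMU replicate 2 (0.038) and PSI replicate 1 (0.167). Listed genes called were 1 to 5 in these fits, fewest without PSII_DCMU replicate 3 (1) and PSII_DCMU replicate 2 (2), and all features called were 1138 to 1685; these fits have fewer samples. All features called were 1496 to 1892 in the other alternatives.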
